A study of Saccharomyces cerevisiae with 12 samples.

Results

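In budding yeast, 9 genes encode the subunits of eIF3 and the factors eIF1, eIF1A and eIF5B, which act in scanning by the small ribosomal subunit and in its joining to the large subunit. The rule that chose them used systematic gene IDs and no measured value, although earlier results of these data were known. All 9 were found among the 6159 genes of the table. The 6 eIF3 genes were RPG1 (YBR079C), NIP1 (YMR309C), PRT1 (YOR361C), TIF34 (YMR146C), TIF35 (YDR429C) and HCR1 (YLR192C). The other 3 were SUI1 (YNL244C, eIF1), TIF11 (YMR260C, eIF1A) and FUN12 (YAL035W, eIF5B). All 9 passed the filter on low values, a mean of at least 5 RPKM, in mRNA and in footprints.

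Translation starts when the small ribosomal subunit, loaded with initiator tRNA, binds near the mRNA cap and scans to a start codon. eIF3 is the large scaffold of that complex, and in yeast its core is built from RPG1 (eIF3a), PRT1 (eIF3b), NIP1 (eIF3c), TIF35 (eIF3g) and TIF34 (eIF3i), with HCR1 (eIF3j) bound more loosely. SUI1 and TIF11 hold the scanning complex open and set how strictly a start codon is chosen, and FUN12 is the GTPase that joins the subunits at the end. DED1 and its paralog DBP1 encode DEAD-box RNA helicases that work in the same step, by unwinding structure ahead of the scanning ribosome.

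The measurements are sequenced ribosome footprints, the mRNA stretches that ribosomes protect from nuclease, and poly(A) mRNA. The cells were SK1 yeast, a laboratory strain, in rich YEPD medium at 30 °C, harvested when the optical density reached 0.6 after 1 minute in 100 µM cycloheximide, which halts elongating ribosomes. The 2xDbp1 genotype carried 4 DBP1 copies driven by the regulatory regions of DED1, the Dbp1 genotype carried DBP1 driven by them, and the Ded1 genotype carried DED1 itself under them. All 3 genotypes thus share the DED1 regulatory regions, and each had 2 footprint and 2 mRNA libraries. The labels do not state whether libraries of a genotype came from separate cultures, so p-values measure the spread between these libraries, which may be technical.

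Depth recovered from the steps between deposited values was 8700000 to 13110000 reads in footprint libraries and 6000000 to 8500000 in mRNA libraries. Each member then had 3202 to 16184 reads in a footprint library and 1150 to 6678 in an mRNA library, so that counting error was at most 1.77% and 2.95% of a value. DED1 mRNA was 1.81 and 1.87 RPKM in 2xDbp1, 2.74 and 2.81 in Dbp1, and 63.0 and 61.5 in Ded1. DBP1 mRNA was 156 and 153 RPKM in 2xDbp1, 100.4 and 104.5 in Dbp1, and 5.12 and 4.26 in Ded1, so both helicases followed the labels. RPKM counts reads per kilobase of gene, scaled to library depth, so levels can be set side by side between genes.

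Ribosome footprints were far more alike among the eIF3 genes than their mRNAs were. Within a library, the highest of the 5 core subunits (TIF35 in every library) exceeded the lowest by 1.73 ± 0.0976 times in footprints (SD, n = 6 libraries) and by 7.53 ± 1.04 times in mRNA. The ratio ran from 1.60 to 1.86 in the 6 footprint libraries and from 6.23 to 8.88 in the 6 mRNA libraries. The ranges lie far apart, and no test was run on them. Across all 4785 genes measured in both library types the spread was not narrower in footprints, with an SD of log2 level of 2.16 in footprints and 2.01 in mRNA.

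RPG1, the largest eIF3 subunit by which the complex is anchored on the small ribosomal subunit, and TIF35, a small subunit with an RNA recognition motif, mark the ends of that range in mRNA, while NIP1 was the lowest in all 6 footprint libraries. RPG1 mRNA was 96.2 and 80.7 RPKM in 2xDbp1, 100.5 and 97.2 in Dbp1, and 129.8 and 104.1 in Ded1. TIF35 mRNA was 793 and 716 RPKM in 2xDbp1, 647 and 767 in Dbp1, and 808 and 782 in Ded1. RPG1 was therefore the lowest and TIF35 the highest eIF3 transcript in all 6 mRNA libraries, and for RPG1 the Ded1 libraries lay above the others. In footprints, RPG1 had 376 and 356 RPKM in 2xDbp1, 332 and 319 in Dbp1, and 361 and 357 in Ded1. TIF35 footprints were 618 and 559 RPKM in 2xDbp1, 528 and 568 in Dbp1, and 591 and 624 in Ded1. For both genes the Dbp1 mean was the lowest of the 3 genotypes in footprints.

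**Figure D1:**
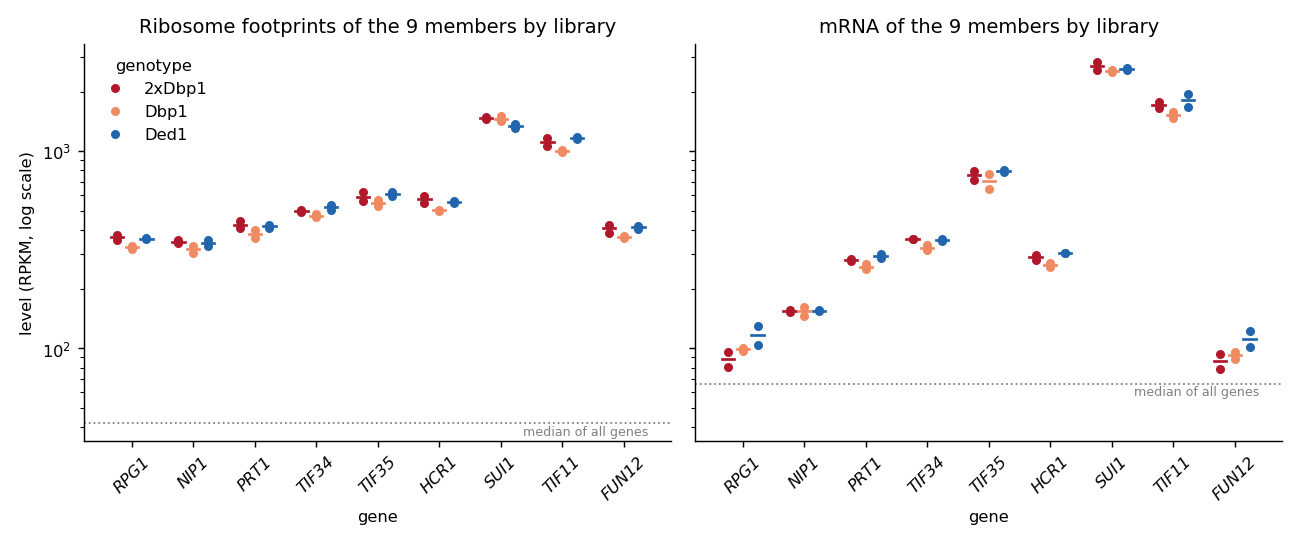
Level of each member in every library, in RPKM on a log axis, for ribosome footprints (left) and mRNA (right). Points are libraries, short bars are means of 2 libraries, and the dotted line is the median of all genes. The eIF3 genes lie close together in footprints, while in mRNA RPG1 and TIF35 differ by 6.23 to 8.88 times.

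The other core subunits lay between RPG1 and TIF35 in mRNA. NIP1, which contacts eIF1 and eIF5 in the scanning complex, had footprints of 353 and 341 RPKM in 2xDbp1, 331 and 305 in Dbp1, and 331 and 355 in Ded1. Its mRNA was 156 and 153 RPKM in 2xDbp1, 162 and 147 in Dbp1, and 155 and 156 in Ded1, with all 3 genotypes overlapping. PRT1, the scaffold subunit that binds RPG1, TIF34 and TIF35, averaged 406.9 ± 26.1 RPKM in footprints and 278 ± 16.9 in mRNA (SD, n = 6 each). TIF34, a WD-repeat subunit bound to PRT1, averaged 497 ± 23.7 RPKM in footprints and 346 ± 18.1 in mRNA. HCR1 averaged 542 ± 35.0 RPKM in footprints and 287 ± 18.9 in mRNA, and the 2 Dbp1 libraries were the lowest for HCR1 in both library types. PRT1 and HCR1 could not be ordered in mRNA, where HCR1 was higher in 5 of 6 libraries.

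Set against the geometric mean of the 5 core subunits in the same library, eIF3 subunits had footprint ratios from 0.791 to 1.37 on average. NIP1 was at 0.791 ± 0.0196, RPG1 at 0.825 ± 0.0138 and PRT1 at 0.958 ± 0.0208 (SD, n = 6 libraries). TIF34 was at 1.17 ± 0.0354, HCR1 at 1.27 ± 0.0337 and TIF35 at 1.37 ± 0.0555. TIF34, TIF35 and HCR1, the smaller subunits, thus had higher footprint density than RPG1, NIP1 and PRT1. The full order did not follow size, with NIP1 below the larger RPG1 and HCR1 below the larger TIF35. That order held in all 6 footprint libraries. In mRNA the same ratios were 0.603 ± 0.0353 for NIP1, 0.393 ± 0.0447 for RPG1 and 1.08 ± 0.0357 for PRT1. They were 1.35 ± 0.0766 for TIF34, 1.11 ± 0.037 for HCR1 and 2.92 ± 0.162 for TIF35. Since both values of a ratio come from 1 library, scaling between libraries does not touch it.

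**Figure D2:**
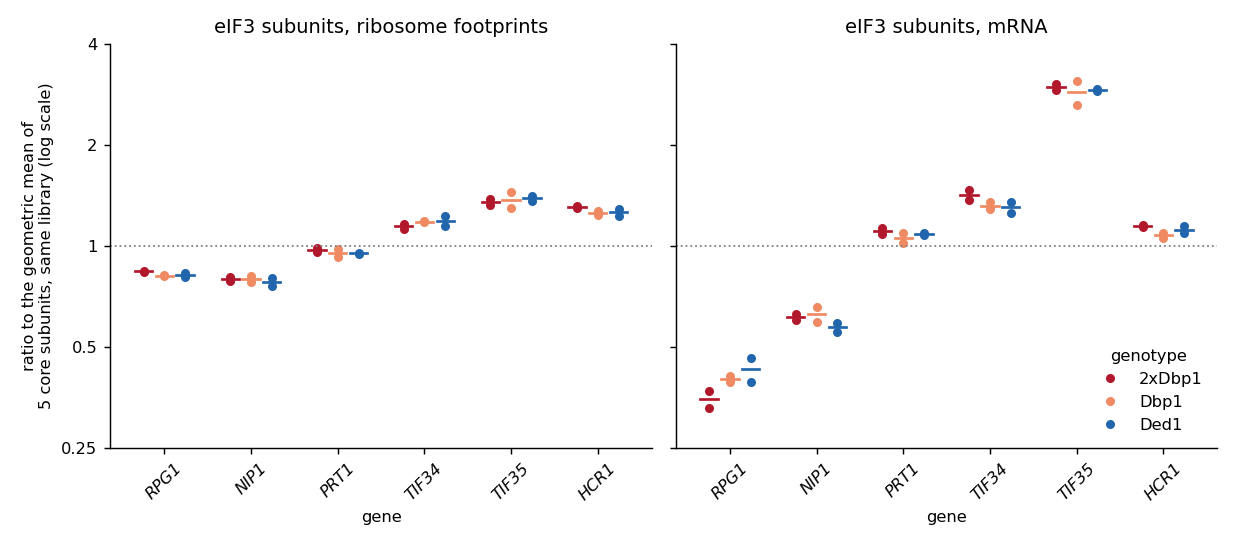
Each eIF3 subunit relative to the geometric mean of RPG1, NIP1, PRT1, TIF34 and TIF35 in the same library, on a log axis, for footprints (left) and mRNA (right). Points are libraries and bars are genotype means of 2. Footprint means run from 0.791 to 1.37, and mRNA means from 0.393 to 2.92.

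The eIF2 and eIF2B complexes also spanned a narrower range in footprints than in mRNA. The 3 subunits of eIF2, which carries the initiator tRNA, differed by 1.18 ± 0.0381 times between the highest and the lowest in footprints and by 3.13 ± 0.219 times in mRNA (SD, n = 6 libraries). The 5 subunits of eIF2B, its exchange factor, differed by 1.32 ± 0.0591 times in footprints and 2.35 ± 0.153 times in mRNA. The narrower range in footprints is therefore not particular to eIF3 among these complexes.

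SUI1 and TIF11, the smallest proteins of the set, had the highest levels of all members in both library types. SUI1 footprints were 1499.8 and 1455 RPKM in 2xDbp1, 1501 and 1428 in Dbp1, and 1379 and 1315 in Ded1. SUI1 mRNA was 2836 and 2583 RPKM in 2xDbp1, 2514 and 2585 in Dbp1, and 2644 and 2586 in Ded1. TIF11 footprints were 1164 and 1063 RPKM in 2xDbp1, 990.0 and 1020.2 in Dbp1, and 1152 and 1182 in Ded1. TIF11 was thus lowest in the Dbp1 footprint libraries, whereas SUI1 was lowest in the Ded1 footprint libraries. TIF11 mRNA was 1782 and 1658 RPKM in 2xDbp1, 1467 and 1588 in Dbp1, and 1674 and 1955 in Ded1, again lowest in Dbp1. SUI1 stood at the 96.4 percentile of the 4785 genes in footprints and the 97.5 percentile in mRNA, and TIF11 at 95.5 and 96.4.

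FUN12 resembled RPG1 in level rather than the other scanning factors. Its footprints were 425 and 387 RPKM in 2xDbp1, 364 and 369.9 in Dbp1, and 406 and 419 in Ded1. Its mRNA was 93.5 and 78.3 RPKM in 2xDbp1, 88.9 and 95.6 in Dbp1, and 122 and 102 in Ded1. As with RPG1, the mRNA of both Ded1 libraries lay above that of every other library. FUN12 mRNA was 0.885 to 0.984 times RPG1 mRNA in the 6 libraries, and FUN12 footprints 1.09 to 1.17 times RPG1 footprints.

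Footprints per mRNA, the footprint RPKM divided by the mRNA RPKM of the same-numbered library, spread the members widely. FUN12 had 4.15 ± 0.558 and RPG1 3.52 ± 0.566 (SD, n = 6 library pairs), which placed them at the 98.6 and 98.0 percentiles of the 4785 genes. NIP1 followed with 2.17 ± 0.0974, HCR1 with 1.89 ± 0.0778, PRT1 with 1.46 ± 0.0635 and TIF34 with 1.44 ± 0.0707. TIF35 had 0.774 ± 0.0329, TIF11 0.651 ± 0.0293 and SUI1 0.545 ± 0.0324, close to the median of all genes at 0.654. PRT1 and TIF34 changed places between libraries, with PRT1 higher in 4 of 6, and every other neighbouring pair in this order kept it in all 6.

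**Figure D3:**
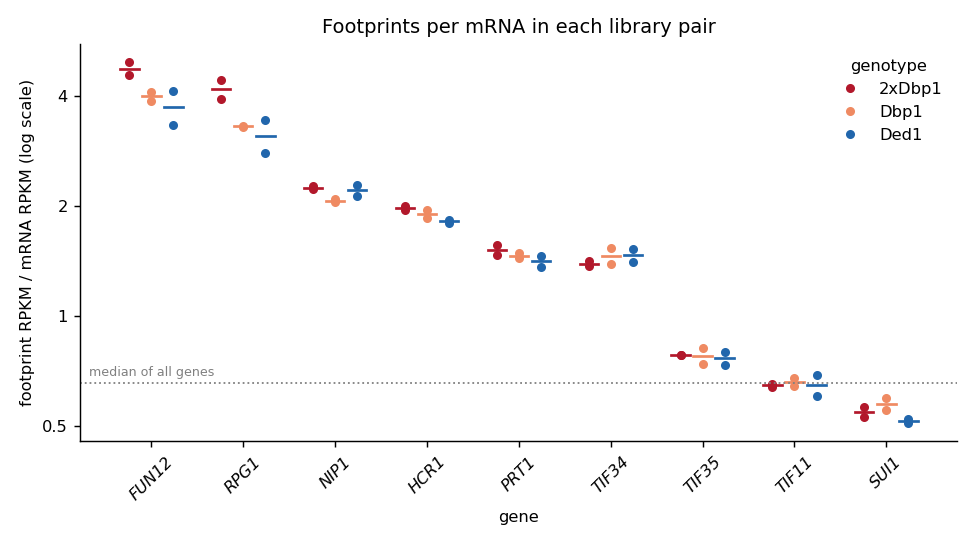
Footprint RPKM divided by mRNA RPKM in each same-numbered pair of libraries, on a log axis, with members ordered by their mean. Points are library pairs, bars are means of 2 pairs, and the dotted line is the median of all genes at 0.654. FUN12 and RPG1 lie highest, TIF11 lies on both sides of that median, and SUI1 lies below it.

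The order largely followed coding length, a measure that the rule for choosing members did not use. FUN12 (1002 residues) and RPG1 (964) are the longest proteins of the set, and TIF11 (153) and SUI1 (108) the shortest. HCR1 (265) was an exception, above the longer PRT1 (763) in all 6 library pairs and also above TIF34 and TIF35. Across the 9 genes the Spearman correlation of coding length with footprints per mRNA was 0.90, against 0.25 across 4744 genes. These are descriptions across genes, which share their libraries and whose 2 values are both divided by length. Genes at least as long as RPG1 had a median of 1.07 footprints per mRNA (421 genes), and genes at most as long as TIF11 had 0.597 (433 genes). FUN12 and RPG1 thus lay above the median of other long genes.

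Comparisons between genotypes ask how far the helicases differ in the mRNAs they serve, and 2xDbp1 differs from Dbp1 in its extra DBP1 copies. In footprints DBP1 had 921 and 943 RPKM in 2xDbp1 and 573 and 571 in Dbp1, and DED1 had 709.8 and 729.7 in Ded1. No member passed in any comparison of mRNA, footprints or translational efficiency (limma on log2(RPKM + 1), Benjamini-Hochberg adjusted p under 0.05 over all genes). The first 2 comparisons below share the Ded1 libraries, and the third shares its libraries with each of them, so their values are not independent. Folds are on the log2(RPKM + 1) scale.

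In Dbp1 against Ded1, all 9 mRNA values and 8 of 9 footprint values were negative, and none passed. In mRNA the median of the 9 log2 fold changes was -0.18, beside +0.04 over 5198 genes, and 0 of 9 passed where 1.52% of all genes did. TIF11 had the lowest p (log2 fold change -0.24, SE 0.101, adjusted p = 0.241) and was the 1 member with an unadjusted p under 0.05, against 19.5% of all genes. FUN12 was at -0.27 (SE 0.13, adjusted p = 0.298), RPG1 at -0.23, HCR1 at -0.20 and PRT1 at -0.18. NIP1, at -0.02, and SUI1, at -0.04, had the smallest values. Leaving out single replicates, RPG1 ran from -0.39 to -0.07 and FUN12 from -0.40 to -0.14, both nearest 0 without Ded1 replicate 1. With 2 libraries per genotype, leaving out 1 or the other moves a value in opposite directions. TIF11 ran from -0.36 to -0.13 and TIF35 from -0.30 to -0.05, where the full fit gave -0.17 for TIF35. In 8 of 9 members both Dbp1 libraries lay below both Ded1 libraries, NIP1 being the exception, and 21% of all genes did so. No member lay above, against 30.6%.

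Footprints gave a similar picture in Dbp1 against Ded1, apart from SUI1. The median was -0.14, beside 0.00 over 4830 genes, and 0 of 9 members passed where 3.31% of all genes did. TIF11 had the lowest p again (log2 fold change -0.22, SE 0.0784, adjusted p = 0.161) and the 1 unadjusted p under 0.05, against 23.5% of all genes. The 6 eIF3 subunits lay between -0.15 and -0.11, and FUN12 was at -0.17. With single replicates left out, NIP1 ran from -0.17 to -0.05, PRT1 from -0.19 to -0.07 and TIF35 from -0.20 to -0.10. SUI1 was the 1 member with a positive value (+0.12, SE 0.0733, adjusted p = 0.385). Both Dbp1 libraries lay below both Ded1 libraries in 7 of 9 members, against 26.1% of all genes, and above them for SUI1, against 25.1%.

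**Figure D4:**
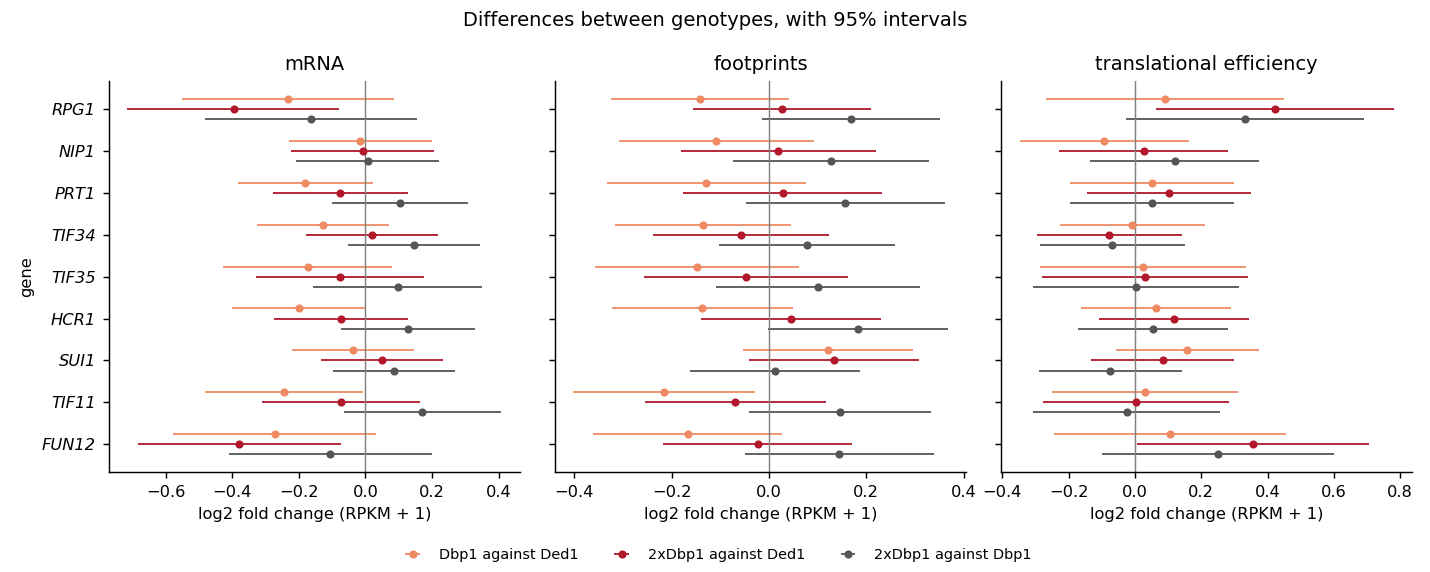
Log2 fold change of each member in 3 comparisons, for mRNA (left), footprints (middle) and translational efficiency (right), on the log2(RPKM + 1) scale. Points are limma estimates and lines are 95% intervals, not adjusted for the number of genes. In footprints Dbp1 against Ded1 lies below 0 for 8 of 9 members, and SUI1 is at +0.12.

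In 2xDbp1 against Ded1, the longest genes RPG1 and FUN12 had the largest mRNA values, both negative. RPG1 was at -0.40 (SE 0.136, adjusted p = 0.289) and FUN12 at -0.38 (SE 0.13, adjusted p = 0.289), and these were the 2 members with an unadjusted p under 0.05, against 15.1% of all genes. The remaining members lay between -0.08 and +0.05, so the median was -0.07, beside +0.03 over all genes, and 0 of 9 passed where 0.077% of all genes did. Leaving out single replicates, RPG1 ran from -0.55 to -0.24 and FUN12 from -0.51 to -0.25. Both were nearest 0 without Ded1 replicate 1, the library with the highest values of both. Coding length moved with this comparison: its Spearman correlation with the mRNA fold change was -0.22 across 4744 genes, and genes at least as long as RPG1 had a median of -0.09. The part of length in the values of RPG1 and FUN12 was not tested. In 4 of 9 members (RPG1, PRT1, HCR1 and FUN12) both 2xDbp1 libraries lay below both Ded1 libraries, against 21.4% of all genes, and in none above, against 30.9%. After rescaling to a common median, an alternative chosen after seeing the data, that count was 7, against 28.3%.

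Footprints of the members were close to level between 2xDbp1 and Ded1. The values ran from -0.07 for TIF11 to +0.13 for SUI1 (SE 0.0733, adjusted p = 0.594), with a median of +0.02, beside +0.01 over all genes. None of 9 passed, none had an unadjusted p under 0.05, against 9.3% of all genes, and 0.0621% of all genes passed. The 95% intervals of the 9 members lay within -0.26 and +0.31, gene by gene and not adjusted for the number of genes. SUI1 alone had both 2xDbp1 libraries above both Ded1 libraries, against 25% of all genes, and TIF34 alone had them below, against 19.7%. After rescaling to a common median, no member lay above, so the SUI1 count depends on the scaling.

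In 2xDbp1 against Dbp1, all 9 footprint values were positive, and none passed. They ran from +0.01 for SUI1 to +0.18 for HCR1 (SE 0.0778, adjusted p = 0.555), with a median of +0.14, beside +0.01 over all genes. RPG1 was at +0.17, PRT1 at +0.16, TIF11 and FUN12 at +0.15 and +0.14, and NIP1 at +0.13. No gene of the 4830 passed in this comparison (0%), and no member had an unadjusted p under 0.05, while 9.07% of all genes did. DBP1, with its extra copies, did not pass either. It was at +0.70 in footprints (adjusted p = 0.113) and +0.59 in mRNA (adjusted p = 0.303). The 0 of 9 thus comes from fits that did not call a difference built into the genotypes. With single replicates left out, NIP1 ran from +0.068 to +0.185, PRT1 from +0.093 to +0.221 and TIF35 from +0.028 to +0.174. TIF11 ran from +0.08 to +0.211 and FUN12 from +0.076 to +0.213. Both 2xDbp1 libraries lay above both Dbp1 libraries in 7 of 9 members, SUI1 and TIF35 being the exceptions, against 24% of all genes, and no member lay below, against 18.2%. In mRNA 0 of 9 passed, where 0.0192% of all genes did, none had an unadjusted p under 0.05, against 7.77% of all genes, and values ran from -0.16 for RPG1 to +0.17 for TIF11, with a median of +0.10, beside -0.01 over all genes. Groups did not overlap for 4 members that were higher, PRT1, TIF34, HCR1 and TIF11, against 18.2% of all genes, and for RPG1, which was lower, against 21.3%. Leaving out single replicates, RPG1 mRNA ran from -0.29 to -0.04.

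A change in translational efficiency is the footprint change less the mRNA change, so a change in either can make it. It was tested as an interaction term fitted to all 12 libraries, without pairing them. In 2xDbp1 against Ded1, RPG1 was at +0.42 (SE 0.161, adjusted p = 0.911) and FUN12 at +0.36 (SE 0.158, adjusted p = 0.971), the 2 members with an unadjusted p under 0.05, against 5.12% of all genes. RPG1 had 3.91 and 4.41 footprints per mRNA in 2xDbp1, 3.31 and 3.28 in Dbp1, and 2.78 and 3.43 in Ded1. FUN12 had 4.55 and 4.94 in 2xDbp1, 4.09 and 3.87 in Dbp1, and 3.32 and 4.11 in Ded1. Both genes were highest in the 2xDbp1 libraries, which lay above all others, while Dbp1 and Ded1 overlapped. Footprints of RPG1 and FUN12 were at +0.03 and -0.02 in 2xDbp1 against Ded1, and their mRNA at -0.40 and -0.38. Leaving out single replicates, translational efficiency ran from +0.27 to +0.57 for RPG1 and from +0.20 to +0.51 for FUN12. In 5 members (RPG1, PRT1, HCR1, SUI1 and FUN12) the 2xDbp1 ratios lay above both Ded1 ratios, against 19.7% of all genes, and in none below, against 24%. The 0 of 9 members that passed stand beside 0.0418% of all genes. In Dbp1 against Ded1, 0 of 9 passed and 0 had an unadjusted p under 0.05, beside 0.0418% of all genes that passed and 3.16% under the unadjusted limit, and the largest value was that of SUI1 (+0.16, SE 0.097). HCR1 and SUI1 lay above without overlap, against 13.2% of all genes, and NIP1 below, against 22.1%. In 2xDbp1 against Dbp1, 0 of 9 passed and 0 had an unadjusted p under 0.05, beside 0% of all genes that passed and 3.59% under the unadjusted limit, with RPG1 at +0.33 (SE 0.161) and FUN12 at +0.25 (SE 0.158). RPG1, NIP1, HCR1 and FUN12 lay above without overlap, against 24.7% of all genes, and no member below, against 17.8%. With same-numbered mRNA and footprint libraries taken as pairs, 0 of 9 passed as well in each comparison, with RPG1 at an adjusted p of 0.154 and FUN12 at 0.194 in 2xDbp1 against Ded1.

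The range of eIF3 footprints within a library was similar in size in the 3 genotypes. The highest core subunit exceeded the lowest by 1.69 ± 0.078 times in 2xDbp1, 1.73 ± 0.187 times in Dbp1 and 1.77 ± 0.022 times in Ded1 (SD, n = 2 each). Both 2xDbp1 libraries lay below both Ded1 libraries, and Dbp1 overlapped both genotypes. Relative to the core mean, RPG1, PRT1 and HCR1 footprints lay higher in 2xDbp1 than in Ded1 without overlap, against 23.9% of all genes, and no eIF3 subunit lay lower, against 17.9%. RPG1 and HCR1 lay higher in 2xDbp1 than in Dbp1, against 6.63%, and TIF34 lower, against 42.0%. No eIF3 subunit was separated between Dbp1 and Ded1. The core subunits enter the mean they are divided by, so their ratios cannot all move the same way. Other genes do not enter it, so these shares are no like background for the core subunits. In mRNA the ratio was 8.25 and 8.88 in 2xDbp1, 6.44 and 7.90 in Dbp1, and 6.23 and 7.51 in Ded1. Both 2xDbp1 libraries thus had the widest spread of eIF3 mRNAs, set by RPG1 at the low end. RPG1 mRNA relative to the core was 0.368 and 0.329 in 2xDbp1, 0.409 and 0.393 in Dbp1, and 0.464 and 0.392 in Ded1. RPG1 footprints relative to the core were 0.837 and 0.841 in 2xDbp1, 0.817 and 0.812 in Dbp1, and 0.832 and 0.808 in Ded1. With 2 libraries against 2, no exact 2-sided permutation test of these ratios can give a p below 0.333.

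SUI1 footprints relative to the eIF3 core separated the 3 genotypes. The ratio was 3.34 and 3.44 in 2xDbp1, 3.69 and 3.64 in Dbp1, and 3.18 and 2.97 in Ded1. The genotypes did not overlap, with Dbp1 highest and Ded1 lowest. SUI1 footprints themselves overlapped between 2xDbp1 and Dbp1 (log2 fold change +0.01). The core subunits, the denominator, were at +0.08 (TIF34) to +0.17 (RPG1) in that comparison. In the same measure 48.5% of all genes lay higher in Dbp1 than in Ded1 with no overlap, 23.9% higher in 2xDbp1 than in Ded1, and 42.0% lower in 2xDbp1 than in Dbp1. All 3 genotypes were separated in the order of SUI1 for 10.9% of all genes. TIF11 relative to the core lay the other way, at 2.59 and 2.51 in 2xDbp1, 2.43 and 2.60 in Dbp1, and 2.66 and 2.67 in Ded1. Both other genotypes lay below Ded1 for TIF11, a direction shown without overlap by 11.4% of all genes for Dbp1 and 17.9% for 2xDbp1. SUI1 footprints were 1.29 and 1.37 times those of TIF11 in 2xDbp1, 1.52 and 1.40 times in Dbp1, and 1.20 and 1.11 times in Ded1, again with no overlap between genotypes. Relative to TIF11, 13.8% of all genes were separated in that order.

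**Figure D5:**
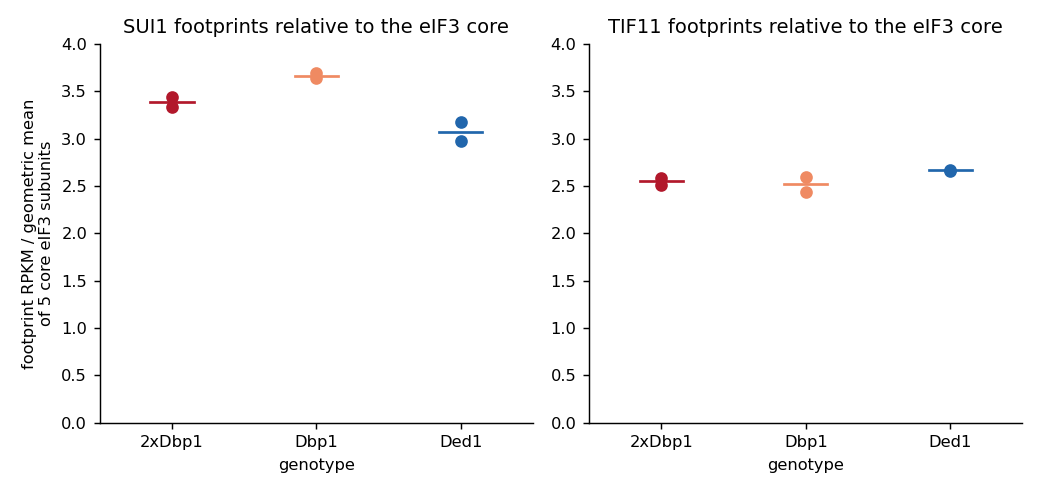
Footprints of SUI1 (left) and TIF11 (right) divided by the geometric mean of the 5 core eIF3 subunits in the same library, by genotype. Points are libraries and bars are means of 2. SUI1 runs from 2.97 to 3.18 in Ded1 and from 3.34 to 3.69 in the other genotypes, and TIF11 from 2.66 to 2.67 in Ded1 and from 2.43 to 2.60 in the others.

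The rest of the initiation pathway showed no call either. Of 26 listed factors outside the members, covering the cap-binding complex, eIF2, eIF2B, eIF5, eIF5A, eIF6 and the Gcn2 branch, 25 were tested in mRNA and 26 in footprints, and 0 passed in either direction in any comparison by limma. TIF1 and TIF2 encode the same eIF4A protein from near-identical genes, so their reads could be split between them. Unadjusted p was under 0.05 for 3, 4 and 2 of them in mRNA in Dbp1 against Ded1, 2xDbp1 against Ded1 and 2xDbp1 against Dbp1, and for 7, 1 and 2 in footprints. The shares of all genes were 19.5%, 15.1% and 7.77% in mRNA and 23.5%, 9.3% and 9.07% in footprints. Their median log2 fold change in Dbp1 against Ded1 was -0.13 in mRNA and -0.14 in footprints, near the -0.18 and -0.14 of the members. There 15 of 25 lay lower without overlap in mRNA and 18 of 26 in footprints, against 21% and 26.1% of all genes. In mRNA 0 lay higher, and in footprints 1. In 2xDbp1 against Dbp1 footprints, 13 of 26 lay higher, against 24%, and 1 lower. Such separation was thus not particular to the members. EAP1, an eIF4E-binding inhibitor of cap-dependent initiation, had the lowest p in 2xDbp1 against Ded1, with -0.71 in mRNA (SE 0.142, adjusted p = 0.178) and +0.66 in translational efficiency (SE 0.136, adjusted p = 0.692). In Dbp1 against Ded1 footprints, TIF3, the RNA-annealing factor eIF4B (-0.29, adjusted p = 0.114), and RLI1, the ribosome recycling ATPase (-0.25, adjusted p = 0.119), had the lowest p. In the mRNA of Dbp1 against Ded1 these were GCD2 of eIF2B (-0.31, adjusted p = 0.149) and EAP1 (-0.38, adjusted p = 0.214), and in that of 2xDbp1 against Ded1 the poly(A)-binding protein PAB1 followed EAP1 (-0.38, adjusted p = 0.289). In 2xDbp1 against Dbp1, GCD7 of eIF2B (+0.30, adjusted p = 0.543) and EAP1 (-0.34, adjusted p = 0.637) led in mRNA, and TIF3 (+0.28, adjusted p = 0.463) and the eIF4G gene TIF4631 (+0.22, adjusted p = 0.503) in footprints. In 2xDbp1 against Ded1 footprints, GCN3 was at -0.22 (adjusted p = 0.528) and GCD1 at -0.18 (adjusted p = 0.594), both subunits of eIF2B. In translational efficiency EAP1 (+0.46) and TIF3 (-0.16) had the lowest p in Dbp1 against Ded1, EAP1 and GCD7 (-0.29) in 2xDbp1 against Ded1, and TIF4631 (+0.27) and GCD7 (-0.19) in 2xDbp1 against Dbp1.

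The mean profile of the 9 members was centred within each library type on the log2 scale. In footprints it was +0.09 and -0.004 in 2xDbp1, -0.07 and -0.10 in Dbp1, and +0.03 and +0.04 in Ded1, with both Dbp1 libraries lowest. In mRNA it was +0.04 and -0.08 in 2xDbp1, -0.09 and -0.05 in Dbp1, and +0.12 and +0.07 in Ded1, with both Ded1 libraries highest and the others overlapping. Among 3272 other genes that averaged 20 RPKM or more in footprints and in mRNA, those most like it by Pearson correlation over the 12 libraries were SUP45, the release factor eRF1 (0.97), HPT1, a purine salvage enzyme (0.97), TSR4 (0.95), ASP1, an asparaginase (0.95), and PWP1, a ribosome assembly factor (0.95). The members themselves ran from 0.14 for SUI1 and 0.49 for NIP1 to 0.93 for HCR1, although each contributes to the profile. The 95th percentile of the other genes was 0.82. The likeness is a description over libraries that all genes share.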

How the data were processed

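The data were 6 mRNA and 6 ribosome footprint libraries. Size selection kept footprints at 28 to 31 nt and mRNA pieces near 50 nt, per the labels' protocols. The authors deposited 1 table of values, which were read as RPKM because, multiplied by coding length less 60 nt, they fall on whole reads: 83.8% to 87.7% of values up to 200 reads came out whole within 0.02 reads. CASAVA, bcl2fastq 2.17 and Bowtie2 are named in the submitters' processing notes, but nothing in the sources used here gives their roles, the genome build or how reads were counted. Of 6159 IDs, 5637 matched the R64 reference table, used for names and lengths. In it none of the 9 members overlaps another gene (0 overlaps).

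From RPKM, log2(RPKM + 1) was fitted on all genes with limma 3.58.1 in R 4.3.3 (trended empirical Bayes), with 3 genotypes per fit and a minimum mean of 5 RPKM. Translational efficiency was fitted as a genotype-by-assay interaction. Fits were also run on simulated data with independent libraries and planted changes larger than any member's. That run does not bear on changes as small as those of the members. Ratios and figures used Python 3.11.15, pandas 2.3.3, numpy 2.4.6 and matplotlib 3.10.9. Named genes are the 9 members, DED1, DBP1, the 2 other initiation factors with the lowest p in each comparison, and the 5 genes most like the members. The members, lists and tests were chosen with earlier results of these data known. Same-numbered mRNA and footprint libraries deviated together across 4785 genes (r = 0.417 for 2xDbp1, 0.657 for Dbp1, 0.533 for Ded1). They were taken as pairs for footprints per mRNA and in the replicate-block alternative of translational efficiency. The main fit of translational efficiency did not pair them. Between genotypes the correlations ran from -0.107 to 0.355. They were 0.325 in mRNA and 0.355 in footprints for 2xDbp1 with Ded1, but -0.107 and -0.071 for 2xDbp1 with Dbp1. The main fits did not pair libraries across genotypes. A planned view of start codon contexts was not made, since no sequence was used here.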

Additional observations from a re-analysis of the deposited data

How the results depend on the processing

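The count of members past the threshold was 0 in all 9 comparisons under all 14 alternatives: pseudocounts of 0.1 and 5, no filter, a minimum mean of 20, rescaling to a common median, the 2 compared genotypes alone, the replicate block, no trend, and each of 6 replicates left out. With the replicate block it was 0 in each comparison, and the lowest adjusted p of any member under any alternative was 0.147. Of 81 member fold changes, 26 changed sign in at least 1 alternative, none of them larger than 0.106 in size as reported. The cause was not tested. After rescaling, TIF34 was at -0.028 in 2xDbp1 against Ded1 mRNA, RPG1, NIP1 and PRT1 at -0.007, -0.015 and -0.005 in its footprints, and in translational efficiency TIF34 at 0.027 in Dbp1 against Ded1 and TIF35 at -0.011 in 2xDbp1 against Dbp1.

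With single replicates left out, mRNA values ran from -0.084 to 0.055 for NIP1 in Dbp1 against Ded1. In 2xDbp1 against Ded1 they ran from -0.002 to 0.04 for TIF34, -0.017 to 0.117 for SUI1, -0.023 to 0.008 for NIP1 and -0.186 to 0.038 for TIF11. In 2xDbp1 against Dbp1 they ran from -0.063 to 0.076 for NIP1, -0.233 to 0.021 for FUN12 and -0.026 to 0.22 for TIF35. Footprints in 2xDbp1 against Ded1 ran from -0.013 to 0.066 for RPG1, -0.033 to 0.07 for NIP1, -0.031 to 0.087 for PRT1, -0.012 to 0.102 for HCR1, -0.12 to 0.025 for TIF35 and -0.091 to 0.045 for FUN12, and in 2xDbp1 against Dbp1 from -0.024 to 0.048 for SUI1. Translational efficiency in Dbp1 against Ded1 ran from -0.078 to 0.062 for TIF34, -0.046 to 0.095 for TIF35, -0.064 to 0.123 for TIF11, -0.06 to 0.24 for RPG1 and -0.046 to 0.258 for FUN12. In 2xDbp1 against Ded1 it ran from -0.089 to 0.097 for TIF11, -0.022 to 0.075 for NIP1 and -0.034 to 0.092 for TIF35, and in 2xDbp1 against Dbp1 from -0.066 to 0.075 for TIF35, -0.139 to 0.002 for TIF34 and -0.061 to 0.01 for TIF11.

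With PRT1 alone as denominator, which is also the median of the 5 core subunits, footprint ratios were 0.826 for NIP1, 0.861 for RPG1 and 1.43 for TIF35, and mRNA ratios 0.558, 0.364 and 2.71. By Spearman correlation 2 of the 5 genes most like the members were shared. After rescaling, an alternative chosen after seeing the data, 9 members lay lower without overlap in Dbp1 against Ded1 mRNA, against 26.2% of all genes. In its footprints 8 did, against 30.6%. Before rescaling the counts were 8, against 21%, and 7, against 26.1%.

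Counts over all genes moved between alternatives. At most 3.31% of all genes passed in the main fits, so the count of 0 among 9 members had little room to move. In Dbp1 against Ded1, 79 genes passed in mRNA and 160 in footprints. With the 2 compared genotypes alone these were 8 and 44, without Ded1 replicate 1 they were 2 and 22, and without Dbp1 replicate 2 they were 204 and 244. In 2xDbp1 against Ded1, 4 genes passed in mRNA and 3 in footprints, against 26 and 12 with the 2 genotypes alone. The replicate block gave 116, 7 and 4 genes in mRNA for Dbp1 against Ded1, 2xDbp1 against Ded1 and 2xDbp1 against Dbp1, where 79, 4 and 1 passed without it. Across genotypes, same-numbered 2xDbp1 and Ded1 libraries deviated together in part, and those of 2xDbp1 and Dbp1 did not. The edgeR and DESeq2 tests were not run, since the values are RPKM. Counting error was at most 2.95% of any member's value, and the spread between libraries adds to it.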
